A study of Mus musculus with 4 samples.

Results

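The genes described here are the ligands and receptors that steer growing axons: ephrins and Eph receptors, semaphorins with plexins and neuropilins, Slits and Robos, and netrins with Dcc and the Unc5 receptors. They were chosen by gene name among the probes of a mouse expression array, which gave 123 probes of 69 genes, out of 41174 probes of 27702 gene names. Of these, 98 probes of 63 genes passed the filter on dim signals, which kept a probe if mutant or wild-type RNA stood well above background on each of the 2 arrays of at least 1 line. The other 25 probes include all probes of 6 genes, Dcc, Sema3c, Sema3d, Sema3e, Sema4f and Unc5cl. Unc50 and Unc5cl were taken in by name alone and are not netrin receptors.

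Total RNA was measured in neurospheres, the floating spheres that mouse neural stem cells form in culture, kept here without serum and with EGF. The mutant cells were the lines Dll1-3 and Dll1-5, which carry a mutation of the Notch ligand Dll1, and the WT cells carried no Dll1 mutation; all came from 129/Sv mice crossed with C57BL/6. Each of 4 arrays compared mutant with WT RNA in different dyes. A line had 2 arrays, with its RNA in Cy5 in replicate 1 and in Cy3 in replicate 2. RNA of 3 preparations was pooled, so a line with its dye-swapped arrays was counted as 1 replicate and n = 2 lines. The labels do not settle this reading: replicates 1 and 2 of a line may be separate pools. The 4 arrays would then be the samples, but the 2 arrays of a line would still share that line. Which part of Dll1 the mutants lack, and the age of the animals, are not given in the sources used here. Values below are log2 ratios of mutant over WT on each array. The error of a line is the distance of its arrays from their mean, and that over both lines is the SD between line means. P-values therefore measure only the spread between these 2 lines, and the ratio leaves out the spread between WT pools.

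Ephrins are membrane-bound ligands, and the Eph receptors that bind them are receptor tyrosine kinases; contact between cells that carry them usually makes a growth cone turn away. Semaphorins act through plexins, with neuropilins as co-receptors for the secreted class, Slits act through Robos, and netrins attract through Dcc and repel through Unc5. Several of these families are also known in neural progenitor niches, where Eph and ephrin contacts bear on proliferation and migration.

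Receptors stood lowest among these genes. Epha4, Ephb1, Ephb2, Ephb3, Plxnb1 and Plxnb3 each had a probe at least 2-fold lower in mutant RNA on all 4 arrays, 7 probes in all (7.14% of the 98 that passed), where 2.24% of all 34446 passing probes were that low. No axon guidance probe was at least 2-fold higher on all 4 arrays, against 1.40% of all probes; counted in either direction, the background was 3.63%. The sign was the same on all 4 arrays for 46 of the 98 probes (46.9%), against 49.2% of all passing probes. Most of the set stood near 0, with 76 of the 98 probes at a mean within 0.5 of it. Another 19 probes of 16 genes were lower by 0.5 or more, and 3 probes of 3 genes were higher by 0.5 or more. The shares of all probes within or past 0.5 were not computed, so counts by 0.5, here and below, have no background. The median over the 98 probes was -0.05, against 0.01 over all passing probes, and the median size of the mean was 0.16, against 0.18.

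No probe passed an adjusted p of 0.05 in limma, 0 of the 98 and 0% of the 34444 tested; the smallest adjusted p was 0.0756, for the axon guidance probes and for all probes. At an unadjusted limma p under 0.05, 25 probes of 17 genes were lower (25.5%, against 15.2% of all probes) and 3 probes were higher (3.06%, against 11.7%). With the 4 arrays taken as separate samples, the other reading of the labels, limma called 27 probes lower and 7 higher at an adjusted p under 0.05, against 18.1% and 15.0% of all probes.

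**Figure D1:**
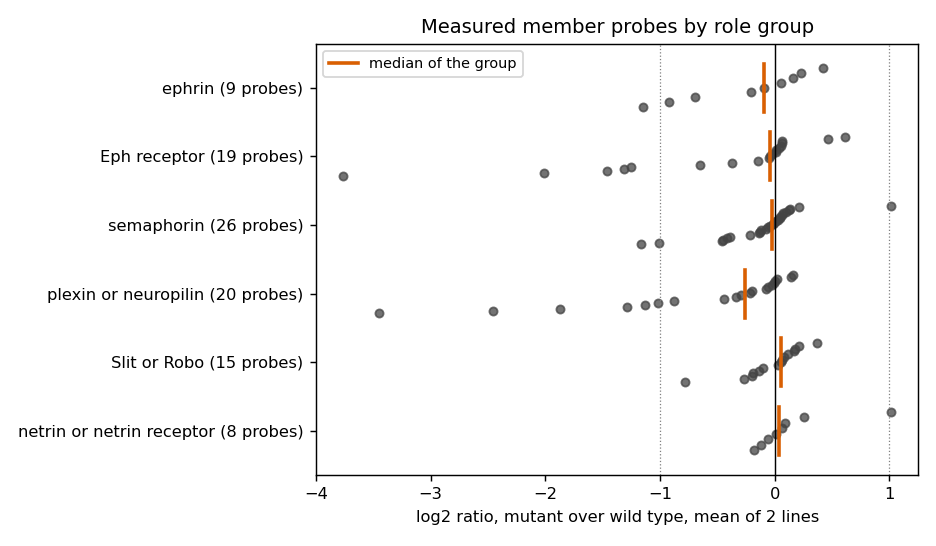
Mean log2 ratio of mutant over WT over both lines (horizontal axis) for each passing probe, by role group; points are probes, the orange bar is the group's median, and dotted lines mark 2-fold. The lowest points are Eph receptors, down to -3.76, and plexins, down to -3.45, while the group medians lie between -0.26 and 0.06.

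The labels were checked on Dll1, whose probe stood at -3.31 and -3.22 in Dll1-3 and at -1.65 and -1.64 in Dll1-5. Dll1 signal was thus lower in mutant RNA on all 4 arrays, more so in Dll1-3, and its probe was well above background there; whether it lies in the mutated part is not given. Each channel had 80.0% to 82.1% of probes well above background, and the arrays of a line correlated at 0.935 in Dll1-3 and 0.898 in Dll1-5, against 0.674 to 0.748 between lines. The number of arrays limits the precision. In bulk RNA, fewer cells of a type and less RNA per cell cannot be told apart.

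The 6 lower genes are shown first by the sequence just upstream of 4 of them, those with the lowest means: Epha4, Plxnb1, Ephb2 and Plxnb3. Each entry gives the 250 bases before the annotated start, 5′ to 3′ on the gene's strand, from RefSeq on GRCm38.p6. They lie at chr1:77515089-77515338 on the minus strand (Epha4), chr9:109095186-109095435 on the plus strand (Plxnb1), chr4:136836013-136836262 on the minus strand (Ephb2) and chrX:73756853-73757102 on the plus strand (Plxnb3). Capitals mark TGGGAA, the core that RBPJ, the DNA-binding partner of activated Notch, recognises.
Epha4: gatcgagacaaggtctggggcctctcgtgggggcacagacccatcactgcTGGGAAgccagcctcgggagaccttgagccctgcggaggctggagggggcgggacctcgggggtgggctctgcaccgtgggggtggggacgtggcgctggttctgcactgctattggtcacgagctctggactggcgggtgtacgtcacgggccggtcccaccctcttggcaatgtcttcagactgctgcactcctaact
Plxnb1: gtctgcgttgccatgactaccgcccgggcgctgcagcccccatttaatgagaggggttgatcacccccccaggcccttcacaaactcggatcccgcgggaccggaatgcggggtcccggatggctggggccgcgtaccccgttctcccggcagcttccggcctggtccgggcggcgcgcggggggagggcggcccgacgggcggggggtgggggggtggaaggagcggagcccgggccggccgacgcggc
Ephb2: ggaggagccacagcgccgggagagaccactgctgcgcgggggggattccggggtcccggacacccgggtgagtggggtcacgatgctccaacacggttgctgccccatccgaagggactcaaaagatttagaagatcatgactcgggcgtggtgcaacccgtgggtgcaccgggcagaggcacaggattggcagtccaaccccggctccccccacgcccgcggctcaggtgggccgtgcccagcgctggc
Plxnb3: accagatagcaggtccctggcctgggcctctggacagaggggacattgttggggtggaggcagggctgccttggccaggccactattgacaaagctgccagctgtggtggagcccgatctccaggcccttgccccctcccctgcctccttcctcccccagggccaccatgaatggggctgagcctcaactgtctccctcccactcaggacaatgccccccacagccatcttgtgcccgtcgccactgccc
The core TGGGAA, searched on both strands (TTCCCA on the other), stood once before Epha4, 200 bases before the start, and was in none of the upstream windows of Ephb1, Ephb2, Ephb3, Plxnb1 and Plxnb3. It was in 11 of the 59 axon guidance genes with a RefSeq promoter (18.6%) and in 24.1% of all 27025 genes with one (21.6% of their 32851 windows of that length). The E-box CACGTG, which reads the same on both strands, was in 0 of the 6, in 4 of the 59 (6.8%), in 6.9% of all genes and in 6.0% of all windows. The 6 windows held 54.0% to 75.2% G and C, where the median of all windows was 52.4%.

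Among the ephrins, 9 of 10 probes passed, and none was 2-fold in one direction on all 4 arrays. Efna5 encodes ephrin-A5, a repulsive ligand held in the membrane by a lipid anchor. Its probe A_51_P144319 stood at -0.81 and -0.78 in Dll1-3 and at -1.60 and -1.41 in Dll1-5, which averaged -1.15 (SD 0.50, n = 2; limma adjusted p = 0.118). The Dll1-5 arrays were the lower ones. A second Efna5 probe, placed 46030 bases away, averaged 0.05, at 0.17 and -0.01 in Dll1-3 and at 0.08 and -0.02 in Dll1-5. The means of the gene's probes were thus of opposite sign, with the second near 0 and of no single sign over the arrays. Efnb1, a transmembrane ligand of EphB receptors, stood at -1.16 and -1.05 in Dll1-3 and at -0.82 and -0.67 in Dll1-5 (mean -0.92, SD 0.25; limma adjusted p = 0.0881). Of the remaining ephrin probes, chosen for mention after their values were seen, Efnb2 was at -0.69, with mutant RNA above background on 2 of 4 arrays, Efna1 at 0.42, and Efnb3, the other transmembrane member, at 0.16.

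Eph receptors had 19 of 23 probes passing, from all 14 genes, with a median of -0.04. Of these, 4 were at least 2-fold lower on all 4 arrays (against 2.24% of all passing probes) and 12 had means within 0.5 of 0. Epha4, which binds ligands of both ephrin classes and marks the set, was lowest. Its probe A_52_P288177 (chromosome 1, 77656505 to 77656564, in array coordinates whose build is not given) had log2 signals of 5.72 and 6.49 in Dll1-3 and 6.25 and 6.96 in Dll1-5, against 9.98, 10.26, 9.92 and 10.31 in WT RNA on the same arrays. Mutant and WT signals did not overlap, and the mutant signal was flagged well above background on 3 of the 4 arrays. In Dll1-3 replicate 1 the flagged signal, 5.72, lay below that of the Dcc probe, 5.96, which was not flagged. Mutant signal was thus near background there, and the size of the ratio depends on the offset, with a mean of -4.75 at an offset of 10. The ratios were -4.26 and -3.77 in Dll1-3 and -3.67 and -3.34 in Dll1-5, averaging -3.76 (SD 0.36, n = 2; limma adjusted p = 0.0756, or 0.000126 with the 4 arrays as separate samples). The scanner software's ratios put the mean at -5.66 (limma adjusted p = 0.0368). The authors' deposited values also put it at -5.66, with a limma adjusted p of 0.0983. A second Epha4 probe, 1059 bases away, stood at -1.57 and -1.42 in Dll1-3 and at -1.28 and -0.98 in Dll1-5 (mean -1.31, SD 0.26; limma adjusted p = 0.0773), with a mean of -2.40 by scanner ratios. Both probes were lower on every array, and they differed in size by 2.45.

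The receptors for transmembrane ephrins stood low as well, apart from Ephb4 and Ephb6. Ephb2 (probe A_52_P315155; chromosome 4, 135535945 to 135536004) had log2 signals of 6.96 and 7.17 in Dll1-3 and 6.85 and 7.12 in Dll1-5, against 9.0, 9.11, 9.03 and 9.01 in WT RNA. Its ratios were -2.04 and -1.94 in Dll1-3 and -2.17 and -1.89 in Dll1-5 (mean -2.01, SD 0.03; limma adjusted p = 0.0756), so the lines lay close together. At its dimmer probe, not well above background in mutant RNA on any array, Ephb2 was at least 1.27-fold lower. Ephb3 stood at -1.59 and -1.44 in Dll1-3 and at -1.46 and -1.36 in Dll1-5 (mean -1.46, SD 0.07; limma adjusted p = 0.0756). Ephb1 stood at -1.43 and -1.32 in Dll1-3 and at -1.14 and -1.13 in Dll1-5 (mean -1.25, SD 0.17; limma adjusted p = 0.0756), with a mean of -2.08 by scanner ratios. For both genes the mutant and WT signals did not overlap, and both have a single probe. Ephb4, better known from blood vessels, was at 0.53 and 0.48 in Dll1-3 and 0.43 and 0.43 in Dll1-5 at one probe and averaged -0.02 at the other, and Ephb6 averaged 0.07.

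Other EphA receptors were mixed. Epha2 was the highest Eph receptor, at 0.87 and 0.64 in Dll1-3 and 0.54 and 0.42 in Dll1-5 (mean 0.62). Epha5 was at -1.14 and -0.89 in Dll1-3 and at -0.39 and -0.18 in Dll1-5 at one probe, while its other probes averaged 0.01 and -0.05. Passing probes of Epha1, Epha3, Epha6, Epha7 and Epha8 had means between -0.04 and 0.06, and Epha10, with 1 outlier spot in Dll1-3 left out, averaged -0.14. Epha2, Epha5, Ephb4 and Ephb6 were singled out after their values were seen.

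**Figure D2:**
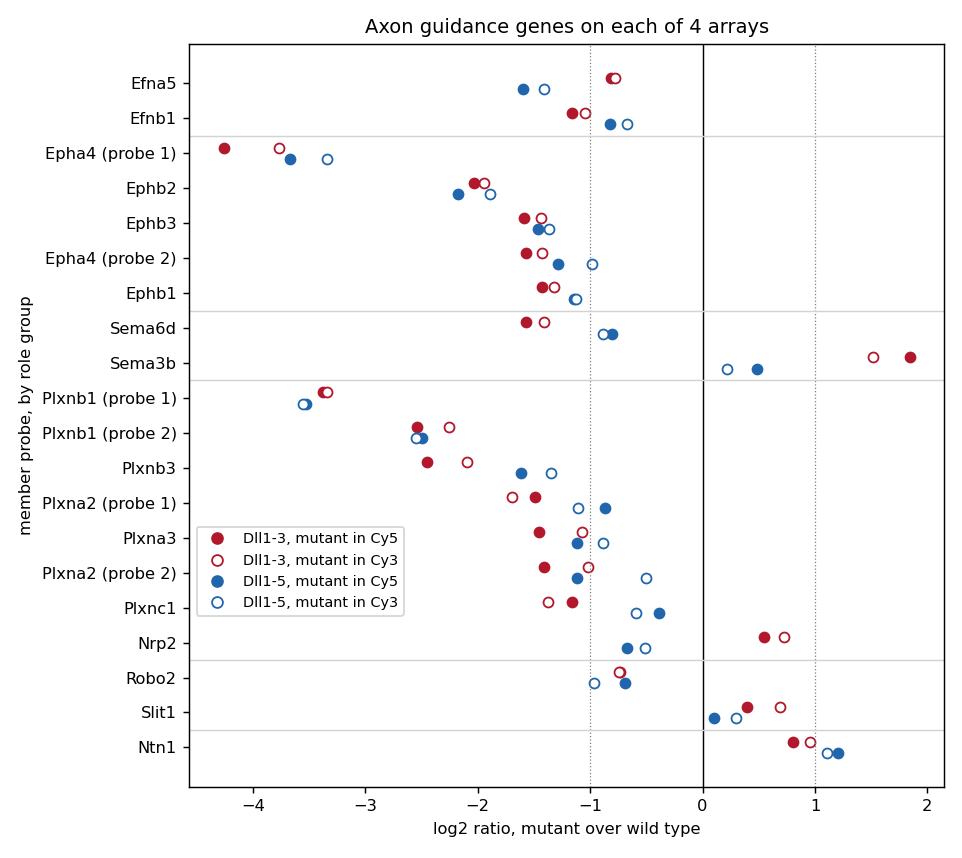
Log2 ratio of mutant over WT on each array (horizontal axis) for the probes that met the naming rule, grouped by role; red points are Dll1-3, blue points Dll1-5, filled with mutant RNA in Cy5 and open in Cy3, and dotted lines mark 2-fold. Epha4 and Plxnb1 lie farthest left in both lines, Sema3b and Ntn1 lie right of 0, and Nrp2 lies right of 0 in Dll1-3 and left of it in Dll1-5.

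Semaphorins, the ligands of plexins, had 26 of 36 probes passing, with a median of -0.02; 23 of the 26 had means within 0.5 of 0. None was 2-fold in one direction on all 4 arrays. Sema6d, a transmembrane semaphorin that binds Plxna1, stood at -1.57 and -1.41 in Dll1-3 and at -0.80 and -0.89 in Dll1-5 at its lowest probe (mean -1.17, SD 0.45; limma adjusted p = 0.106), and its other probes averaged -0.45 and -0.01. The probe at -0.01 was dim, well above background on 1 of 4 arrays in WT RNA. Sema3b, a secreted semaphorin, was the highest member in Dll1-3, at 1.85 and 1.51, against 0.49 and 0.22 in Dll1-5 (mean 1.02, SD 0.94; limma adjusted p = 0.269). Its log2 signals were 8.16 and 7.91 in Dll1-3 and 6.74 and 6.52 in Dll1-5, against 6.32, 6.40, 6.25 and 6.30 in WT RNA, where it was well above background on 3 of 4 arrays. Mutant signals were above WT signals on every array, by more in Dll1-3. Sema5b, singled out after its values were seen, was at -1.16 and -0.91 in Dll1-3 and at -1.0 and -0.95 in Dll1-5 at one of 3 probes, with the others at -0.46 and -0.08. The probe at -0.08 was by far the brightest, with a mean log2 intensity of 11.50, against 6.82 for the probe with the lowest ratios. Sema4d and Sema5a, singled out after their values were seen, stood near 0. Sema4d, which binds Plxnb1, averaged 0.03 at its passing probe, and Sema5a, a ligand of Plxnb3, averaged -0.01 at its own. They stand for no other ligands of the lower B plexins.

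Plexins and neuropilins, the receptor side, had 20 of 21 probes passing, from all 10 genes, and the lowest median of the role groups, at -0.26. Means were below 0 for 17 of the 20; 3 were at least 2-fold lower on all 4 arrays and 7 on both Dll1-3 arrays. Plxnb1, the receptor of Sema4d, was low at both probes. Probe A_51_P281734 (chromosome 9, 109165500 to 109165559) had log2 signals of 8.56 and 8.68 in Dll1-3 and 8.44 and 8.42 in Dll1-5, against 11.94, 12.01, 11.96 and 11.98 in WT RNA. The ratios were -3.38 and -3.34 in Dll1-3 and -3.53 and -3.56 in Dll1-5 (mean -3.45, SD 0.13; limma adjusted p = 0.0756). At the second probe, 435 bases away, they were -2.54 and -2.26 in Dll1-3 and -2.49 and -2.55 in Dll1-5 (mean -2.46, SD 0.09; limma adjusted p = 0.0756). The lines overlapped at that probe, and mutant and WT signals did not overlap at either.

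Plxnb3 was lower by more in Dll1-3, at -2.45 and -2.09, than in Dll1-5, at -1.62 and -1.35 (mean -1.88, SD 0.56; limma adjusted p = 0.0849). Plxnb2, the remaining B plexin, averaged -0.22 and 0.00 at its 2 probes. Plxna2 and Plxna3 signal for secreted semaphorins together with neuropilins. Plxna2 was at -1.49 and -1.70 in Dll1-3 and -0.87 and -1.10 in Dll1-5 at its brightest probe (mean -1.29, SD 0.43; limma adjusted p = 0.0931), and its other probes averaged -1.01 and -0.44. Plxna3 was at -1.45 and -1.07 in Dll1-3 and -1.12 and -0.88 in Dll1-5 (mean -1.13, SD 0.19; limma adjusted p = 0.0758), with its dimmer probe at -0.33. Plxnc1, the receptor of Sema7a, was at -1.16 and -1.37 in Dll1-3 and -0.39 and -0.60 in Dll1-5 at its brighter probe (mean -0.88, SD 0.55; limma adjusted p = 0.173), and its other probe averaged -0.29. All passing probes of Plxna2, Plxna3, Plxnb1, Plxnb3 and Plxnc1 had means below 0, while the passing probes of Plxna1, Plxna4, Plxnb2 and Nrp1 had means between -0.22 and 0.16.

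Slits and Robos had 15 of 20 probes passing, with a median of 0.06; 14 had means within 0.5 of 0 and none was 2-fold on both arrays of a line. Robo2, a Slit receptor, was the exception, at -0.73 and -0.74 in Dll1-3 and -0.69 and -0.97 in Dll1-5 at probe A_51_P418488 (mean -0.78, SD 0.07; limma adjusted p = 0.0778). Its size depended on the background handling, with a mean of -1.29 at an offset of 10 (limma adjusted p = 0.0463) and -1.71 by scanner ratios (limma adjusted p = 0.0496). The authors' deposited values also gave -1.71, with a limma adjusted p of 0.101. The other 4 passing Robo2 probes had means between -0.27 and -0.14. Of these, only the probe at -0.20 was well above background in mutant RNA on all 4 arrays. At the probe at -0.27, mutant RNA was not well above background on any array. Slit1, a secreted ligand of Robos, stood at 0.40 and 0.69 in Dll1-3 and 0.10 and 0.30 in Dll1-5 (mean 0.37, SD 0.24; limma adjusted p = 0.226).

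Netrins and their receptors had 8 of 11 probes passing. Ntn1, the secreted attractant and repellent that acts through Dcc and Unc5 receptors, was higher, at 0.80 and 0.95 in Dll1-3 and 1.20 and 1.1 in Dll1-5 (mean 1.01, SD 0.20; limma adjusted p = 0.0786). Its log2 signals were 9.55 and 9.69 in Dll1-3 and 9.98 and 9.78 in Dll1-5, against 8.75, 8.74, 8.78 and 8.68 in WT RNA, so the groups did not overlap. A second Ntn1 probe, 16242 bases away, averaged 0.26. The other passing netrin and Unc5 probes had means between -0.18 and 0.09, and the probe of Dcc was not well above background in any channel.

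The lines were then set side by side. In Dll1-3, 14 probes of 11 genes were at least 2-fold lower on both arrays (14.3%, against 5.18% of all passing probes) and 1, Sema3b, was higher (1.02%, against 3.97%). In Dll1-5, 8 probes of 7 genes were at least 2-fold lower on both arrays (8.16%, against 3.01%) and 1, Ntn1, was higher (1.02%, against 2.55%). Only sizes are given for a single line, which is 1 replicate. The WT RNA of the lines' arrays may come from the same pools, so the lines' ratios may share it.

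Dll1-3 exceeded Dll1-5 by at least 2-fold, with no overlap of arrays, for 2 probes, those of Nrp2 and Sema3b (2.04%, against 1.52% of all passing probes), and no probe was as far apart the other way (against 2.30%). Nrp2, a co-receptor of secreted semaphorins, stood at 0.55 and 0.72 in Dll1-3 and at -0.67 and -0.51 in Dll1-5 at probe A_52_P93910, a difference of 1.22. Its log2 signals were 8.68 and 8.71 in Dll1-3, against 8.14 and 7.98 in WT RNA, and 7.39 and 7.57 in Dll1-5, against 8.06 and 8.07 in WT RNA. WT RNA thus lay between the lines. The second passing Nrp2 probe averaged 0.04 in Dll1-3 and -0.04 in Dll1-5, a difference of 0.07, so the large difference stood at 1 of the 2 probes. That second probe was dim, well above background on 2 of 4 arrays in mutant RNA and on 3 of 4 in WT RNA. The offset compresses ratios at such a probe, so its small difference says little about the brighter one. For Sema3b the difference was 1.33, and 2.33 by scanner ratios. Neither difference was tested with a line as 1 replicate. With the 4 arrays as separate samples, limma called the line difference for 11 of the 98 probes, 5 higher in Dll1-3 and 6 lower, where 16.7% of all probes tested were called.

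**Figure D3:**
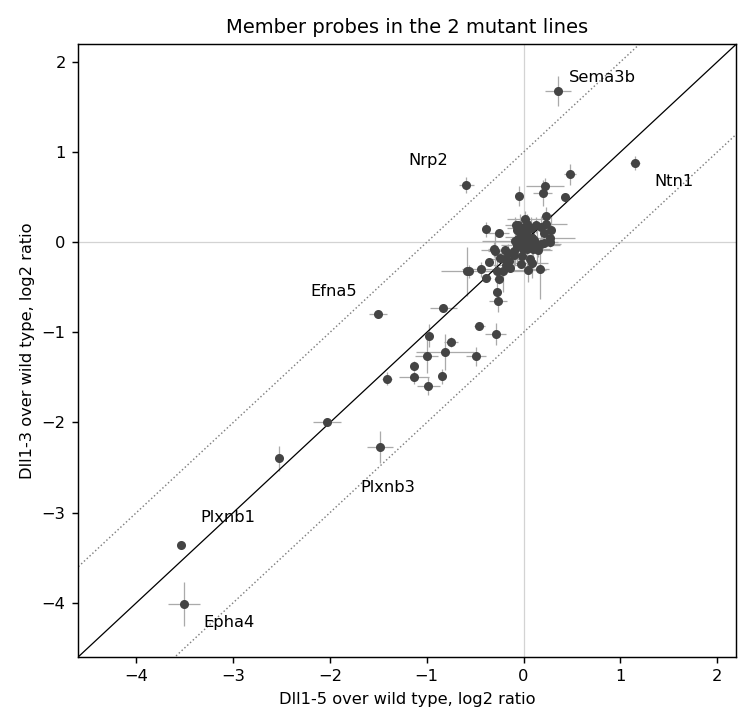
Line mean of the log2 ratio over WT in Dll1-3 (vertical axis) against that in Dll1-5 (horizontal axis) for the 98 passing probes; bars reach to the arrays of a line, the solid line marks equal values and dotted lines a 2-fold difference. Sema3b and Nrp2 lie above the upper dotted line, while Plxnb1 and Epha4 lie near the solid line at the lower left.

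Where a gene had several probes, they often gave different sizes. Of 26 genes with more than 1 passing probe, 8 had probe means of opposite sign, and in 1 of these, Efna5, a probe was 2-fold lower in a line. In each of the 8, at least 1 of the means lay near 0, such as 0.05 for Efna5, 0.01 for Epha5 and -0.02 for Ephb4. The largest gap between probes of a gene exceeded 1 for Epha4 (2.45), Ephb2 (1.64), Efna5 (1.20) and Sema6d (1.16), with a median gap of 0.37 over the 26 genes. For Epha4 and Plxnb1 all probes were lower by more than 1, so their direction did not depend on the probe, while the 3 Sema6d probes ranged between -1.17 and -0.01. The Sema6d probe at -0.01 was dim, well above background on 2 of 4 arrays in mutant RNA and on 1 of 4 in WT RNA. The gap for Ephb2 rests on a probe whose mutant signal was not well above background on any array, so its ratio there is only a bound.

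**Figure D4:**
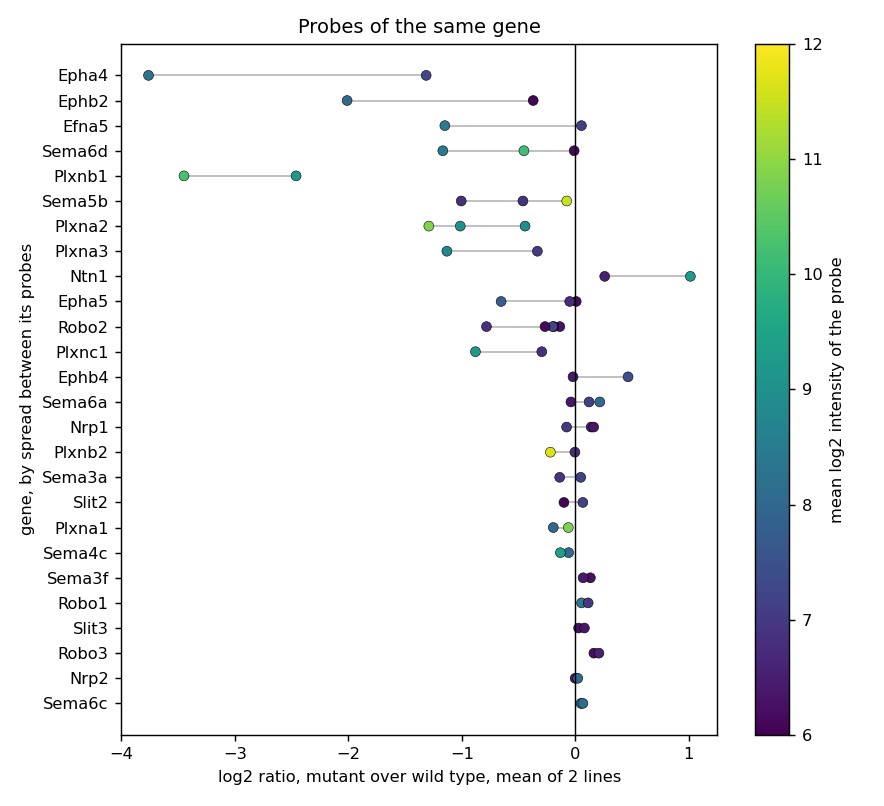
Mean log2 ratio of mutant over WT over both lines (horizontal axis) for each probe of the 26 genes with more than 1 passing probe, ordered by the gap between probes; colour gives the probe's mean log2 intensity. Epha4, at the top, spans -3.76 to -1.31, and Sema6c, at the bottom, has the smallest gap.

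Further genes of axon guidance, mostly cytoplasmic partners of these receptors, were read from a list of 58 genes, of which 56 had passing probes (116 of 129 probes). None of the 116 passed an adjusted p of 0.05 in limma; 29 were lower and 3 higher at an unadjusted p under 0.05, where 15.2% and 11.7% of all probes were. Their median was -0.07. On all 4 arrays, 6 probes of 6 genes were at least 2-fold lower and 0 were higher, where 2.24% and 1.40% of all passing probes were. Rgma, a repulsive ligand of neogenin, was at -2.23 and -2.71 in Dll1-3 and -1.33 and -1.78 in Dll1-5. Srgap3, a GTPase-activating protein that binds Robos, was at -1.64 and -1.63 in Dll1-3 and -2.16 and -2.18 in Dll1-5, with a second probe at 0.02. Flrt3, a membrane protein that binds Unc5 receptors, was at -2.49 and -2.56 in Dll1-3 and -1.04 and -1.45 in Dll1-5. Crmp1, which relays semaphorin signals to the cytoskeleton, averaged -1.52, and Pak3, a kinase downstream of Rac and Cdc42, averaged -1.32, with a second Pak3 probe at -0.02. With median centring in place of loess the count was 1.

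Markers of several cell types stood below 0 as well, and their part in the values above was not tested. Marker genes are counted below if any of their probes was 2-fold on all 4 arrays. Of all passing probes, 2.24% were that low and 1.40% that high. Neural stem cell markers were detected: of 20 passing probes of 12 genes, 17 were well above background in mutant RNA on all arrays, and their median was -0.52 in Dll1-3 and -0.34 in Dll1-5 (range -4.95 to 0.82 in Dll1-3). Of these, Sox2, Pax6 and Hes5 each had a probe 2-fold lower on all 4 arrays. Astrocyte markers had a median of -0.73 in Dll1-3 and -0.21 in Dll1-5 over 22 passing probes, with Apoe, Aldoc, Sparcl1 and Gja1 2-fold lower on all 4 arrays, and Clu averaging 1.38. Neuron markers had a median of -0.25 in Dll1-3 and -0.25 in Dll1-5 over 18 passing probes. Of these probes, 4 were 2-fold lower on all 4 arrays, from 3 of 10 genes (Dcx, Elavl3 and Map2). In the oligodendrocyte lineage, 4 genes, Gpr17, Cnp and Pdgfra among them, were 2-fold lower and Cspg4 2-fold higher on all 4 arrays, and the median of 16 passing probes was -0.12 in Dll1-3 and 0.02 in Dll1-5. Ependymal markers had a median of -0.32 in Dll1-3 and -0.28 in Dll1-5 over 7 passing probes, with Foxj1 and Ccdc39 2-fold lower. Medians lay between -0.02 and 0.06 in each line for markers of microglia and blood, endothelial and mural cells, and fibroblasts, where Pdgfra, also in the oligodendrocyte list, was the gene 2-fold lower; Itgam was not well above background in any channel.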

How the data were processed

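Intensity values of 2-colour arrays, deposited by the authors, came from a scanner and Agilent Feature Extraction (version 8.1.1.1), per the submitters' processing notes. These files also hold the scanner software's log10 ratio of Cy5 over Cy3, per the file headers. The authors' deposited series values were logs to base 10 (log10) of WT over mutant, since their r with mutant over WT was -0.961, -0.955, -0.953 and -0.955. Their column medians were -0.03, 0.01, -0.02 and 0.01, their centring is not stated in the labels or headers, and they served only as an alternative.

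From each mean signal the local median background was corrected with normexp (offset 50) and normalised by loess within each array (span 0.3; control and outlier spots at weight 0), using limma (version 3.58.1) under R 4.3.3; files were read through data.table, version 1.17.8. The offset compresses ratios of dim probes. Outlier spots (50, 78, 115 and 27 an array) were left out, ratios were turned to log2 mutant over WT, and spots of a probe were averaged. Log2 signals per channel were taken after loess and Aquantile. Of 41174 probes, 34446 passed the filter on dim signals. Dye-swapped arrays were averaged per line and line means tested against 0 by lmFit and eBayes (residual degrees of freedom 1, prior 1.73). P-values of 34444 probes were adjusted by Benjamini-Hochberg. For a probe dim on every array of a group, the fold is a bound: the brighter group's mean over the dim group's, with dim signals under that array's lowest signal well above background raised to it. The pipeline was tested on simulated data.

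Genes were named by RefSeq accession (83 probes) or symbol (40). The files place 122 of the 123 probes, without naming a build. Another 3 probes whose RefSeq symbol fits (Ntn5, Sema3e and Nrp2) carry other names in the files and were not counted. Values are given for Epha4, for genes 2-fold on all 4 arrays, on both arrays of a line or between lines, for genes with probes of opposite sign of which one was 2-fold in a line, and for up to 2 genes in other role groups; members named beside these were chosen after their values were seen. A few list genes are left out of the text. The members, lists and tests were chosen with earlier results of these data known. Each replicate number is a dye orientation. Deviations of same-numbered arrays from their line means correlated at 0.678, which is the same for both numbers by construction. Dye and a pairing of samples cannot be told apart by it, and the numbers were not taken to pair samples. Alternatives covered background, source of ratios, normalisation, filter, probe choice, each array left out, fold threshold, replicate unit and moderation.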

Additional observations from a re-analysis of the deposited data

Results flagged for a closer look

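The Nrp2 probe A_52_P93910 was singled out because both Dll1-3 arrays lay above WT and both Dll1-5 arrays below it, with a Dll1-3 minus Dll1-5 difference of 1.22 on the log2 scale. With a line counted as 1 replicate this difference was not tested. The second passing Nrp2 probe, which was dim and not well above background on every array, differed by 0.07 between the lines. Over the alternatives the difference ranged between 1.13 and 1.72.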

How the results depend on the processing

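None of the named probes' recomputed means and line differences reversed in sign under the alternatives that gave a value. The set's median stayed below 0, though its size moved. Counts have no sign to reverse, and several of them moved. Single pathway and marker genes were not recomputed. The count of probes past an adjusted p of 0.05 in limma, 0 with lines as replicates, was 10 with an offset of 10, 10 with scanner ratios, 11 with a trend in eBayes, 34 with arrays as separate samples, 31 with the replicate block as well, 29 with the line as a random block (correlation 0.337), and 0 to 14 with an array left out (14 without Dll1-3 replicate 1, 13 without Dll1-5 replicate 2). Epha4, at -3.76, then passed with adjusted p of 0.0357 (mean -4.75, offset 10), 0.0368 (-5.66, scanner ratios), 0.0249 (-3.76, trend), 0.000126 (separate arrays), 0.00261 (replicate block) and 0.000157 (random block), with means of -3.88 to -3.64 when an array was left out; its adjusted p was 0.0227 without Dll1-3 replicate 1 and 0.0157 without Dll1-5 replicate 2. Scanner ratios and the deposited table each gave 13 probes lower on all 4 arrays, 4 higher in Dll1-3, 15 lower in Dll1-5, 9 apart between lines and 12 in the pathway list. A threshold of 1.5-fold gave 15 lower and 1 higher on all 4 arrays, 3 higher in Dll1-3 and 15 lower in Dll1-5. It also gave 8 apart and 15 in the pathway list. Shares of all probes past a fold were not computed for the alternatives, so these counts have no background beside them. Median centring gave 9 lower in Dll1-3, 0 higher in Dll1-5 and 1 in the pathway list. The mean of a gene's probes gave 7 lower in Dll1-3, 0 higher in Dll1-5, 1 apart and 2 in the pathway list. Requiring both channels above background on all arrays gave 0 higher in Dll1-3 and 1 apart, and left no value for Epha4's lower probe. Limma on separate arrays, chosen after seeing the data, gave 11 apart. The median of the set, -0.0532, was -0.0421 without background correction, -0.0787 with an offset of 10, -0.129 with scanner ratios, -0.125 with the table, -0.0427 with median centring, -0.0361 without a filter, -0.0613 with the strict filter, -0.0393 with the brightest probe per gene, -0.0393 with the mean of probes, and -0.0832 to -0.0434 with an array left out. The table put the Sema3b line difference at 2.33, and the means of Ephb1 at -2.08 and Robo2 at -1.71. It put the means of the 2 Epha4 probes at -5.66 and -2.41 (limma adjusted p = 0.0983 and 0.101). The cause of these shifts was not tested. Loess followed by Aquantile leaves ratios as they were by construction. Limits are the 2 lines, read as 1 pool each although the labels do not settle it, and probes whose mutant signal is near background, where the offset sets the size of the ratio.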
